A study of Homo sapiens with 15 samples.

Results

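The difference between trastuzumab deruxtecan (T-DXd) and its antibody, trastuzumab, was examined in NCI-N87 cells, an established line from a gastric carcinoma in which the HER2 gene is amplified. The 6 libraries compared, of 15 in the series, were 3 from cells given 1 µg/ml trastuzumab and 3 from cells given 1 µg/ml T-DXd, all collected after 72 h, and every gene listed in the deposited table was used. A further 3 libraries of NCI-N87 cells received the vehicle of T-DXd, an acetate buffer with sorbitol. They entered the expression filter, the scaling, the average level of each gene and the estimate of the spread, and are quoted beside named genes. The labels call the libraries biological replicates of 1 cell line in culture, so the p-values measure the spread between cultures of that line. The doses of both drugs were matched by mass per volume.

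Trastuzumab is an antibody that binds HER2, the receptor tyrosine kinase encoded by ERBB2. T-DXd is the same antibody joined by a peptide linker to DXd, a derivative of exatecan that inhibits topoisomerase I. After HER2 carries the conjugate into the cell, lysosomal proteases cut the linker and the released DXd traps topoisomerase I on DNA. Replication forks that meet such a trapped complex break, and the breaks activate checkpoint kinases, p53 where it is functional, homologous recombination and, when DNA reaches the cytosol, the cGAS-STING sensor that induces type I interferon.

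Total counts ran from 47990460 to 64623697 per library over all 9 NCI-N87 libraries. Of 18473 genes listed, 17394 (94.2%) had enough counts to be tested. Every listed gene had at least 1 count in each library, so a gene silent in any library is outside this comparison. IFNB1 and CXCL10 were not analysed here. Levels are given as CPM, counts scaled to a common library size by TMM, and differences as log2 fold changes of T-DXd over trastuzumab ± SE from edgeR's quasi-likelihood test. A gene is called higher or lower at an adjusted p under 0.05, with p-values adjusted over all 17394 genes. Where all 3 values of one group lie above all 3 of the other, an exact permutation test cannot give a p below 0.1. The summed levels of most lists reached this p, lists of mixed direction included, so it does not set lists apart.

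ERBB2 was abundant in every library, at 10741, 10441 and 10570 CPM under trastuzumab and 10122, 10289 and 10299 CPM with T-DXd, a difference of -0.048 ± 0.0094 on the log2 scale. All 13 epithelial marker genes examined were detected, and 7 were higher and 5 lower. Of 20 leukocyte markers 10 could be tested, and 5 were higher and 1 lower with T-DXd. The defining genes PTPRC, CD3D, CD3E, CD3G and MS4A1 were not analysed here. The summed level of the leukocyte markers was 73.1 to 76.1 CPM under trastuzumab and 104 to 106 CPM with T-DXd. Of 18 fibroblast and endothelial markers only 4 could be tested, COL1A1, ACTA2, VWF and ENG, and their summed level was 4.28 to 4.48 CPM under trastuzumab and 10.5 to 13.6 CPM with T-DXd. The part of these markers in the results below was not tested. In bulk RNA, fewer cells of one kind and less RNA per cell cannot be told apart.

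T-DXd and trastuzumab differed in 57.7% of the genes tested, mostly by small amounts. With T-DXd, 4920 genes (28.3% of those tested) were higher and 5119 (29.4%) were lower. All counts of list members, above and below, are to be read beside these shares. The median absolute log2 fold change was 0.249, and 76.8% of genes lay within 0.5 of no change. At 2-fold or more, 488 genes (2.81%) were higher and 423 (2.43%) lower, 5.24% in all, and 78 genes differed by 4-fold or more, 50 of them higher. The share of genes called grew with expression, from 23.0% of genes under an average log2 CPM of 0 to 81.1% of those over 8. Lists of abundant genes can therefore hold more calls than these shares. The genes under a log2 CPM of 0 nevertheless held 219 of the higher and 252 of the lower genes called at 2-fold or more.

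**Figure D1:**
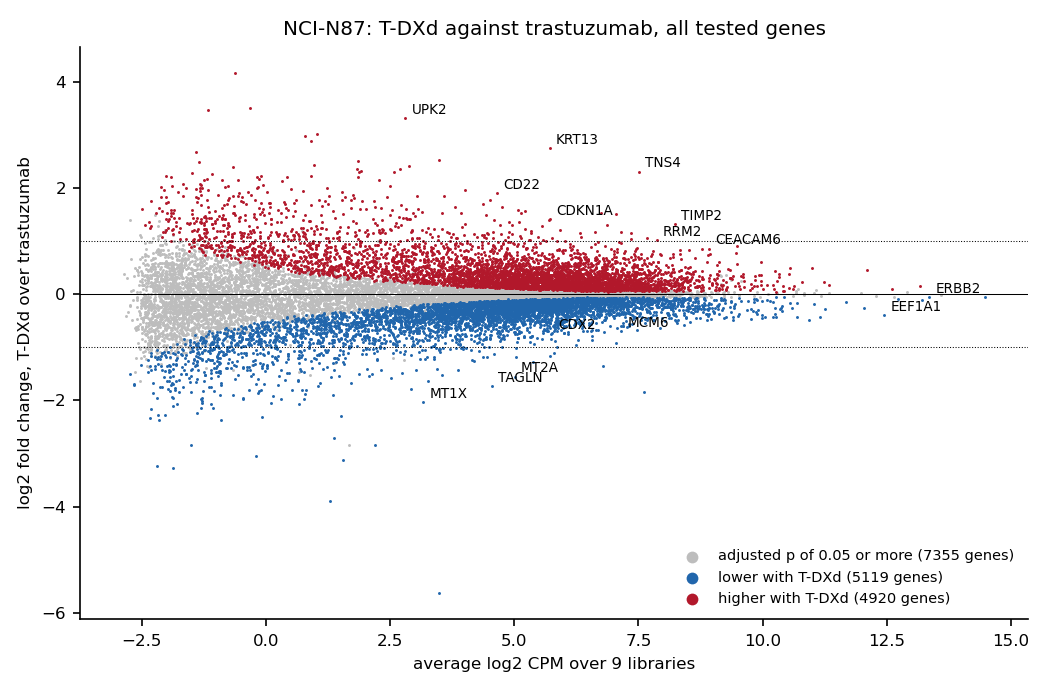
Log2 fold change of T-DXd over trastuzumab (vertical) against average log2 CPM over the 9 NCI-N87 libraries (horizontal) for 17394 genes, red where higher and blue where lower at an adjusted p under 0.05; dotted lines mark 2-fold. The 4920 red and 5119 blue points, whose split depends on the scaling, mostly lie inside the dotted lines; the lowest point of all, near -5.63, is the read-through symbol BLOC1S5-TXNDC5, which shares reads with the genes it joins.

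At an average log2 CPM of 2 or more, the genes that rose most included a uroplakin, a keratin and a kallikrein. UPK2, a uroplakin that forms plaques on the urothelial surface (chromosome 11, 118956298 to 118958559 of GRCh38), measured 1.52, 1.56 and 2.08 CPM under trastuzumab and 16.2, 16.8 and 19.3 CPM with T-DXd. The difference was 3.32 ± 0.13 on the log2 scale (adjusted p = 3.01e-12, edgeR), or 9.98-fold. The genes that rose most were picked among called genes whose groups did not overlap, so the call and the lack of overlap follow from the choice. The floor is an average over all 9 libraries, so a gene low under trastuzumab, such as UPK2, can pass it through its T-DXd libraries. KRT13, a keratin of non-cornified stratified epithelia (chromosome 17, 41500981 to 41505612), measured 18.8, 17.7 and 17.3 CPM under trastuzumab and 117, 125 and 119 CPM with T-DXd. Its difference of 2.75 ± 0.043 (adjusted p = 6.02e-17, edgeR) came with libraries that stayed close together within each group.

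Several of the other large increases belong to adhesion and the extracellular matrix. TNS4, a tensin that binds integrin tails at focal adhesions (chromosome 17, 40475834 to 40501623), measured 77.4, 74.8 and 77.4 CPM under trastuzumab and 363, 408 and 369 CPM with T-DXd, a difference of 2.31 ± 0.038. With trastuzumab it stood slightly below vehicle, which measured 88.7, 91 and 88.6 CPM. The kallikrein protease KLK5, which acts in shedding of the cornified layer, went from 3.89, 4.48 and 4.52 to 23.8, 24.9 and 25.6 CPM (2.52 ± 0.091). HYAL1, a lysosomal hyaluronidase, differed by 2.41 ± 0.12, and the adhesion G protein-coupled receptor ADGRF4 by 2.31 ± 0.097. MCAM, an adhesion molecule of the immunoglobulin family, differed by 1.86 ± 0.083.

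Genes better known from other lineages were among the 12 largest increases at an average log2 CPM of 2 or more. CD22, a sialic acid-binding receptor known from B cells, measured 13.8, 12.8 and 14.1 CPM under trastuzumab and 52.2, 49.8 and 51.2 CPM with T-DXd (1.91 ± 0.061). LAT2, an adaptor of immune receptor signaling, differed by 2.15 ± 0.11, and NES, an intermediate filament of progenitor cells, by 1.97 ± 0.070. NOS3, the endothelial nitric oxide synthase, measured 2.93, 2.73 and 2.6 CPM under trastuzumab and 10.3, 12.2 and 11.3 CPM with T-DXd (2.04 ± 0.10). APOL3, an apolipoprotein L induced by interferon, differed by 1.85 ± 0.11. These genes were chosen among those whose libraries did not overlap, which held with T-DXd above for 30.2% and below for 32% of all tested genes. The log2 fold change of trastuzumab over vehicle, which shares the trastuzumab libraries, was 0.34 for CD22, 0.022 for NES and 0.13 for NOS3.

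**Figure D2:**
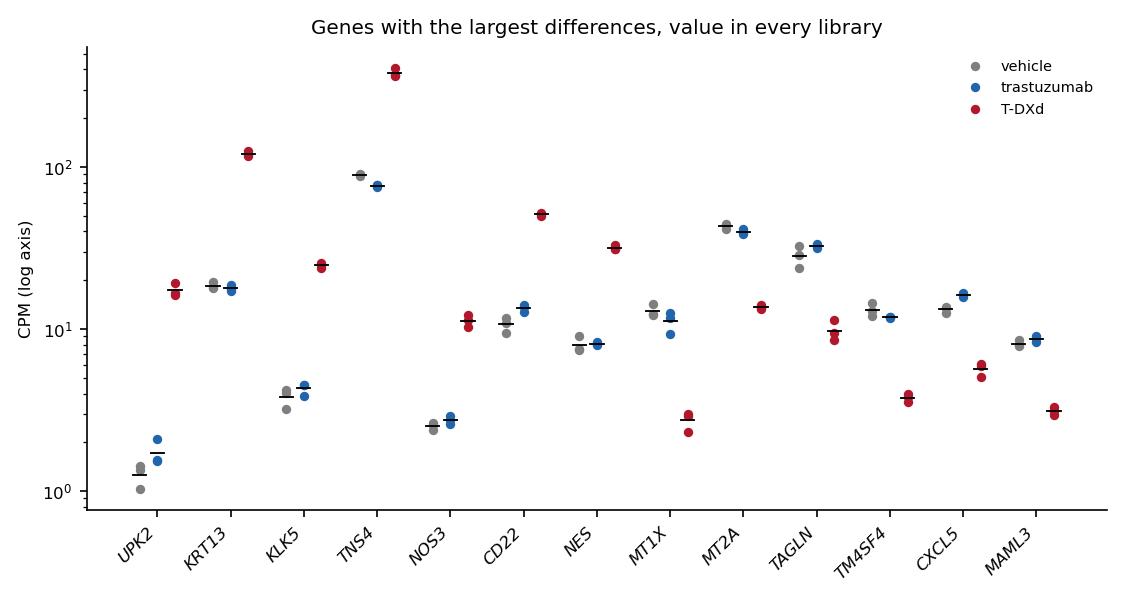
CPM on a log axis for 13 of the genes with the largest differences, with each dot 1 library (3 vehicle, 3 trastuzumab, 3 T-DXd) and a bar at the group mean. The genes were chosen so that the drugs do not overlap, and the distance between them can be read for KRT13, which lies between 117 and 125 CPM with T-DXd and between 17.3 and 18.8 CPM with trastuzumab.

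Metallothioneins and an actin-binding protein were among the genes that fell most above the same level. MT1X and MT2A are metallothioneins, small proteins that bind zinc and copper and are induced by metals through the factor MTF1. MT1X measured 12.6, 9.26 and 11.7 CPM under trastuzumab and 2.32, 2.91 and 2.99 CPM with T-DXd, a difference of -2.04 ± 0.13 (adjusted p = 6.10e-10, edgeR). MT2A measured 39.5, 38.9 and 41.4 CPM under trastuzumab and 14, 13.3 and 13.6 CPM with T-DXd (-1.55 ± 0.046). MT1F, at lower levels of 2.28, 1.69 and 2.19 against 1.29, 1.19 and 1.34 CPM, differed by -0.69 ± 0.16. Reads of these near-identical copies on chromosome 16 can be split between them by counting, so their single values are uncertain. Of the 15 zinc-handling genes tested, 6 were higher and 6 lower (40% each), beside 28.3% and 29.4% of all tested genes. SLC39A4, which imports zinc at the cell surface, was higher by 0.62 ± 0.040, and the zinc exporter SLC30A1 had -0.063 ± 0.030, not called.

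The promoters of MT1X and MT2A are printed because these metallothioneins were among the largest falls and MTF1 acts on metallothionein genes through metal response elements. Each is 300 bases from RefSeq (GRCh38.p14), 250 before and 50 after the annotated start, 5′ to 3′ on the gene's strand, with matches to the core of the metal response element, TGCNCNC on either strand, in capitals. This core was found in 62.8% of the promoters of tested genes.
MT1X (chr16:56682220-56682519, plus strand): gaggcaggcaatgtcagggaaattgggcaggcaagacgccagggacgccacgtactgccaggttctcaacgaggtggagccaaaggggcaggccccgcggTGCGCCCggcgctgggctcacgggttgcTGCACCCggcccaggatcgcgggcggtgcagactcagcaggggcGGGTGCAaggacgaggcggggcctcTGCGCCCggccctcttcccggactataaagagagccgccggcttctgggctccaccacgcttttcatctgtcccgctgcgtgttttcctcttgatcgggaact
MT2A (chr16:56608334-56608633, plus strand): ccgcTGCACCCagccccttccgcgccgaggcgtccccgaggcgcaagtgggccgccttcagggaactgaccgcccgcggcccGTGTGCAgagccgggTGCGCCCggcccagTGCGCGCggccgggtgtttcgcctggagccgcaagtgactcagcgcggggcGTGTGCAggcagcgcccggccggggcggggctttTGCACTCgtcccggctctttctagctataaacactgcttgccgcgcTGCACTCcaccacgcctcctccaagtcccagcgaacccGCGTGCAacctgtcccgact
MT1X held 4 matches and MT2A 8.

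TAGLN, an actin-binding protein of contractile cells, measured 32.7, 33.4 and 31.6 CPM under trastuzumab and 8.58, 9.45 and 11.3 CPM with T-DXd (-1.74 ± 0.10). TM4SF4, a membrane protein of intestine and liver, differed by -1.64 ± 0.088, and SULT1E1, which sulfates estrogens, by -1.58 ± 0.12. DEPTOR, which binds and inhibits mTOR, fell from 6.27, 6.13 and 5.22 to 1.94, 2.07 and 2.05 CPM (-1.54 ± 0.12). MAML3, a coactivator of Notch, differed by -1.47 ± 0.093, and NEK5, a kinase of the NIMA family, by -1.43 ± 0.066.

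The direct target of DXd and its repair enzymes moved in both directions. TOP1, which encodes topoisomerase I (chromosome 20, 41028822 to 41124487), measured 161, 169 and 164 CPM under trastuzumab and 233, 226 and 225 CPM with T-DXd, a rise of 0.47 ± 0.028 (adjusted p = 4.02e-10, edgeR). Over 29 topoisomerases and enzymes that remove trapped TOP1, 14 (48.3%) were higher and 6 (20.7%) lower, beside 28.3% and 29.4% of all tested genes. The median of the list was 0.057 beside -0.02 for all tested genes. TOP2A, the topoisomerase of dividing cells, rose by 0.36 ± 0.023, and EME1, a subunit of a nuclease that cuts stalled forks, by 0.67 ± 0.073. TOP1MT, the mitochondrial topoisomerase I, fell from 49.2, 49.2 and 49.1 to 40.6, 42.2 and 45.2 CPM. LIG3, a ligase that seals the nick after a trapped complex has been removed, fell by 0.61 ± 0.074.

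Checkpoint signaling genes changed unequally. Of 27 tested, 13 (48.1%) were higher and 5 (18.5%) lower, beside 28.3% and 29.4% of all tested genes. CHEK2, the checkpoint kinase downstream of ATM, measured 30.1, 31.6 and 28.1 CPM under trastuzumab and 40.4, 42.5 and 41.5 CPM with T-DXd (0.47 ± 0.048). ATM itself differed by 0.15 ± 0.037, ATR by -0.068 ± 0.025 and CHEK1, the kinase downstream of ATR, by 0.097 ± 0.038. The calls of ATR and CHEK1 were lost when trastuzumab replicate 2 was left out, among other settings (adjusted p = 0.0706 and 0.173, edgeR). The phosphatase CDC25B, which activates CDK1 at entry into mitosis, rose from 104, 101 and 105 to 194, 181 and 185 CPM (0.85 ± 0.027), and of the kinases that hold CDK1 inactive, PKMYT1 rose by 0.59 ± 0.035 and WEE1 fell by 0.41 ± 0.046. RAD9A, a subunit of the ring-shaped checkpoint clamp, fell from 30.7, 30.2 and 31.4 to 21.1, 19.2 and 23.8 CPM. H2AX, the histone variant that is phosphorylated at breaks, differed by 0.18 ± 0.031.

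Homologous recombination and the Fanconi anemia pathway, which repair broken and crosslinked forks, were mostly higher with T-DXd. Of 39 members 26 were higher and 5 lower, against 28.3% and 29.4% of all tested genes, and the median was 0.32. POLQ, the polymerase of microhomology-mediated end joining, measured 49.1, 49.7 and 46.7 CPM under trastuzumab and 98, 99.4 and 94.3 CPM with T-DXd (1.00 ± 0.033, adjusted p = 3.28e-13, edgeR). FANCB, a subunit of the Fanconi core ligase, went from 6.97, 5.96 and 5.81 to 14.5, 14.6 and 12.9 CPM (1.17 ± 0.091), and RAD51AP1, which stimulates strand exchange, rose by 0.85 ± 0.048. FANCD2 rose by 0.60 ± 0.029 and BRCA1 by 0.48 ± 0.031. The exceptions included another core subunit, FANCF, which fell from 30.5, 34 and 32 to 17.8, 18.2 and 18.6 CPM (-0.82 ± 0.053), and MCM9, a helicase of fork repair, at -0.47 ± 0.069.

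Among p53 target genes, CDKN1A and SFN, both inhibitors of the cell cycle, rose. CDKN1A, which encodes p21, measured 34.3, 30.5 and 36.6 CPM under trastuzumab and 88.8, 92 and 90.9 CPM with T-DXd (1.42 ± 0.050), while trastuzumab and vehicle differed by -0.01. SFN, which encodes 14-3-3 sigma, went from 87.2, 87 and 86.6 to 155, 165 and 168 CPM (0.90 ± 0.028). MDM2, the ubiquitin ligase of p53 and one of its best known targets, differed by only 0.096 ± 0.028, and that call was lost without T-DXd replicate 1 (adjusted p = 0.0538, edgeR). Of 48 targets tested 27 (56.2%) were higher and 8 (16.7%) lower, beside 28.3% and 29.4% of all tested genes. The lower targets included SESN1 (-0.55 ± 0.063), BTG2 (-0.36 ± 0.045) and PHLDA3 (-0.31 ± 0.049). CDKN1A and SFN are also induced by other factors than p53.

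Apoptosis genes of both signs rose. Of 33 tested, 19 (57.6%) were higher and 7 (21.2%) lower, beside 28.3% and 29.4% of all tested genes. TNFRSF10B, the death receptor DR5, measured 76.3, 75.4 and 73.8 CPM under trastuzumab and 119, 113 and 119 CPM with T-DXd (0.64 ± 0.029). BID, which links death receptors to mitochondria, rose by 0.46 ± 0.033. The survival proteins BCL2L1 and MCL1 rose as well, by 0.42 ± 0.025 and 0.27 ± 0.025. CYCS, which encodes cytochrome c, fell from 224, 232 and 231 to 211, 204 and 213 CPM.

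The machinery of mitosis had the highest share of raised genes of the lists examined. Of 83 members 72 were higher and 4 lower, the median was 0.38 and the summed level was 8248 to 8321 CPM under trastuzumab and 10588 to 10797 CPM with T-DXd (exact permutation test, two-sided, p = 0.1). CEP55, which acts at the last cut of cytokinesis, measured 96.1, 95.5 and 101 CPM under trastuzumab and 179, 172 and 177 CPM with T-DXd (0.85 ± 0.025). HJURP, the chaperone of the centromeric histone, rose by 0.78 ± 0.029, and CDK1, the kinase that drives entry into mitosis, by 0.77 ± 0.042. MKI67, the source of the proliferation antigen Ki-67, rose by 0.35 ± 0.028. The 4 lower members were KIF20A (-0.17 ± 0.027), HMGB2 (-0.17 ± 0.029), CENPE (-0.14 ± 0.036) and LMNB1 (-0.13 ± 0.026), which encodes lamin B1 of the nuclear envelope.

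The promoters of CEP55 and HJURP, among the larger rises of this list, are shown with the cell cycle homology region (CHR), TTTGAA on either strand, in capitals. Through this element many cell cycle genes are repressed in resting cells. The letters occurred in 10.0% of the promoters of all tested genes and in 46 of 68 promoters (67.6%) of the mitosis list.
CEP55 (chr10:93496362-93496661, plus strand): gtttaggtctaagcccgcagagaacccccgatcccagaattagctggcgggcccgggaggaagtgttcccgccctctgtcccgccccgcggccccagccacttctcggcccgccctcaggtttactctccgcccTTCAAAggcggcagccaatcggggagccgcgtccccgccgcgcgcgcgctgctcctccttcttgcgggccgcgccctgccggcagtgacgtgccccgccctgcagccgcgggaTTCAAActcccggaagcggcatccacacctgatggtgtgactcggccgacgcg
HJURP (chr2:233854486-233854785, minus strand): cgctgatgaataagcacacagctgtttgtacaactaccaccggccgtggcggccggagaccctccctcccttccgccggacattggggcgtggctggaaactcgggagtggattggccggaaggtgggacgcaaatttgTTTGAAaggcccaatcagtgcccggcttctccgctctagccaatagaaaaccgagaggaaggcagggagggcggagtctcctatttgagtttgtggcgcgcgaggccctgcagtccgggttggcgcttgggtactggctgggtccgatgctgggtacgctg

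DNA replication genes did not move as a unit. Of 54 tested, 32 (59.3%) were higher and 10 (18.5%) lower, beside 28.3% and 29.4% of all tested genes. RRM2, the regulated subunit of ribonucleotide reductase, which makes deoxynucleotides, rose from 172, 172 and 171 to 353, 348 and 341 CPM (1.02 ± 0.024, adjusted p = 8.84e-15, edgeR). CDC6 and ORC6, which license origins, rose by 0.75 ± 0.026 and 0.65 ± 0.040. The MCM helicase that CDC6 loads went the other way: MCM6 fell from 161, 161 and 159 to 102, 100.3 and 94.5 CPM (-0.69 ± 0.028), and MCM5 fell from 161, 155 and 159 to 104, 104 and 107 CPM (-0.59 ± 0.025). MCM2 and MCM7 were lower by smaller amounts, -0.24 ± 0.027 and -0.16 ± 0.024, and MCM3 was not called at -0.047 ± 0.026. PCNA, the sliding clamp, had -0.0051 ± 0.027, also not called.

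The promoters of CDC6 and MCM6 are shown side by side because these partners in licensing moved in opposite directions. Both hold the core of an E2F site, TTTCGCGC or TTTGGCGC on either strand, in capitals. The part of these matches in the changes was not tested. Such a core was present in 1.98% of the promoters of all tested genes and in 11 of 46 (23.9%) of the replication list.
CDC6 (chr17:40287629-40287928, plus strand): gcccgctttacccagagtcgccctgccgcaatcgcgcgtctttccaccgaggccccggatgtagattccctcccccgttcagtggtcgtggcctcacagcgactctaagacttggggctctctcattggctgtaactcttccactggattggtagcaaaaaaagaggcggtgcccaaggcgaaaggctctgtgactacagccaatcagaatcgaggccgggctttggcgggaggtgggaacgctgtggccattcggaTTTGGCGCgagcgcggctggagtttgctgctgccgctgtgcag
MCM6 (chr2:135876394-135876693, minus strand): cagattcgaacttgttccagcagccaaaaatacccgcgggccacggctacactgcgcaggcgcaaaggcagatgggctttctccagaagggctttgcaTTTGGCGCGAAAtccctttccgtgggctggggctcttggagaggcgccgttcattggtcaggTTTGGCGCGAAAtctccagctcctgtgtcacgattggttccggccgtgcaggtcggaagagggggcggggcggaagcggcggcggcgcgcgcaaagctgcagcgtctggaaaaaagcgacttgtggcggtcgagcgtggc
In CDC6 the match began 7 bases after the annotated start, and the first of those in MCM6 began 152 bases before it. The 4 matches in MCM6 form pairs that overlap on opposite strands.

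At the entry to S phase, inhibitors and drivers rose together. Of 28 cyclins, CDKs, inhibitors and E2F genes 16 (57.1%) were higher and 9 (32.1%) lower, beside 28.3% and 29.4% of all tested genes. The CDK4 and CDK6 inhibitor CDKN2B, or p15, went from 14.1, 14.8 and 14.2 to 26.9, 24.9 and 26.2 CPM (0.85 ± 0.055), and CCND1, cyclin D1, rose by 0.39 ± 0.026. SKP2, the ubiquitin ligase subunit that marks p27 for destruction, fell by 0.57 ± 0.035, and E2F5, a repressor E2F, by 0.95 ± 0.069. MYC fell from 201, 200.1 and 205 to 163, 171 and 173 CPM (-0.26 ± 0.027). Of 38 replication-dependent histone genes, whose messages mostly lack the poly(A) tail that mRNA selection needs, 3 were higher and 8 lower.

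Several EGFR ligands rose, and ERBB2 differed by -0.048 ± 0.0094. TGFA, transforming growth factor alpha (chromosome 2, 70447284 to 70553826), measured 41, 43.9 and 42.3 CPM under trastuzumab and 97.2, 95.6 and 102 CPM with T-DXd (1.21 ± 0.042, adjusted p = 6.95e-13, edgeR). HBEGF went from 8.1, 7.72 and 8.4 to 17, 18.2 and 16.5 CPM (1.09 ± 0.068) and AREG, amphiregulin, from 37, 38.6 and 38 to 64.5, 63.6 and 65.8 CPM (0.77 ± 0.036). Their receptor EGFR rose by 0.53 ± 0.030 and ADAM10, which sheds ligands of this family, by 0.21 ± 0.026. ERBB3, the kinase-impaired partner of HER2, fell by 0.20 ± 0.023 and LRIG1, which promotes degradation of ERBB receptors, from 12.6, 10.6 and 11.8 to 6.72, 6.26 and 7.08 CPM (-0.81 ± 0.083). One ligand was lower, EPGN at -1.09 ± 0.42, a value from low counts that was named after its values were seen. In all, 9 of 16 family members were higher and 4 lower, and for TGFA, HBEGF and EGFR trastuzumab stood within 0.12 of vehicle on the log2 scale.

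Genes that report ERK signaling were more often higher than lower. Of 38 feedback and immediate-early genes 21 were higher and 8 lower, with a median of 0.29. DUSP5, a nuclear phosphatase of ERK, went from 10.6, 10.7 and 10.9 to 25.8, 26.5 and 28.2 CPM (1.32 ± 0.058), and ETV5, an ETS factor induced by ERK, from 26, 23.8 and 26 to 57.8, 60.6 and 58.9 CPM (1.22 ± 0.046). EPHA4, an Eph receptor, had the largest change of the list at 2.31 ± 0.15. SPRY1 and SPRY2, which inhibit receptor tyrosine kinase signaling, fell by 0.59 ± 0.077 and 0.77 ± 0.078, and JUND, an AP-1 subunit, fell by 0.42 ± 0.039. Of 30 PI3K, AKT and FOXO target genes 13 (43.3%) were higher and 12 (40%) lower, beside 28.3% and 29.4% of all tested genes. Among them were PIK3R1, the regulatory subunit of PI3K, at -0.48 ± 0.028 and IRS1, the insulin receptor adaptor, at 0.54 ± 0.048.

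Lysosomal genes, some of whose products act on the conjugate after uptake, were mostly higher. Of 46 tested 30 were higher and 7 lower, with a median of 0.25 and a summed level of 6602 to 6628 CPM under trastuzumab and 7566 to 7664 CPM with T-DXd. PSAP, the precursor of the saposins, went from 1365, 1328 and 1328 to 1913, 1860 and 1913 CPM (0.50 ± 0.019). NEU1, the lysosomal sialidase, rose by 1.06 ± 0.034, SMPD1, acid sphingomyelinase, by 1.07 ± 0.090 and the protease CTSV by 1.07 ± 0.047. The proteases differed among themselves: LGMN rose from 83.1, 85.6 and 85.3 to 132, 132 and 130.5 CPM, CTSB had 0.041 ± 0.023, not called, and CTSD, the aspartic protease cathepsin D, fell from 1299, 1300 and 1336 to 992, 1013 and 1018 CPM (-0.38 ± 0.019). CD68, a lysosomal membrane protein that also serves as a macrophage marker, rose by 0.97 ± 0.045.

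ABCG2, an efflux pump for camptothecins, was higher with T-DXd. It measured 14.3, 14.7 and 15.5 CPM under trastuzumab, 28.7, 33.3 and 31.2 CPM with T-DXd and 18.3, 18.3 and 17.7 CPM with vehicle (1.07 ± 0.059, adjusted p = 1.57e-10, edgeR). ABCC1, another efflux pump, rose by 0.33 ± 0.027, and CYP3A5, an oxidase of drugs, by 1.02 ± 0.051. Several conjugating and reducing enzymes fell, and over the whole list 8 of 26 were higher and 15 lower (median -0.24). UGT1A6, a glucuronosyltransferase, fell from 379, 382 and 383 to 263, 259.8 and 244 CPM (-0.58 ± 0.029), NQO1, a quinone reductase, by 0.43 ± 0.022, and ALDH1A1, a retinaldehyde dehydrogenase, from 1326, 1335 and 1346 to 1012, 992 and 989.8 CPM (-0.42 ± 0.018). The aldo-keto reductases AKR1C2 and AKR1C3 differed by -1.08 ± 0.078 and -0.86 ± 0.030; these close paralogs share sequence, as the UGT1A isoforms share exons, so their separate values are uncertain.

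**Figure D3:**
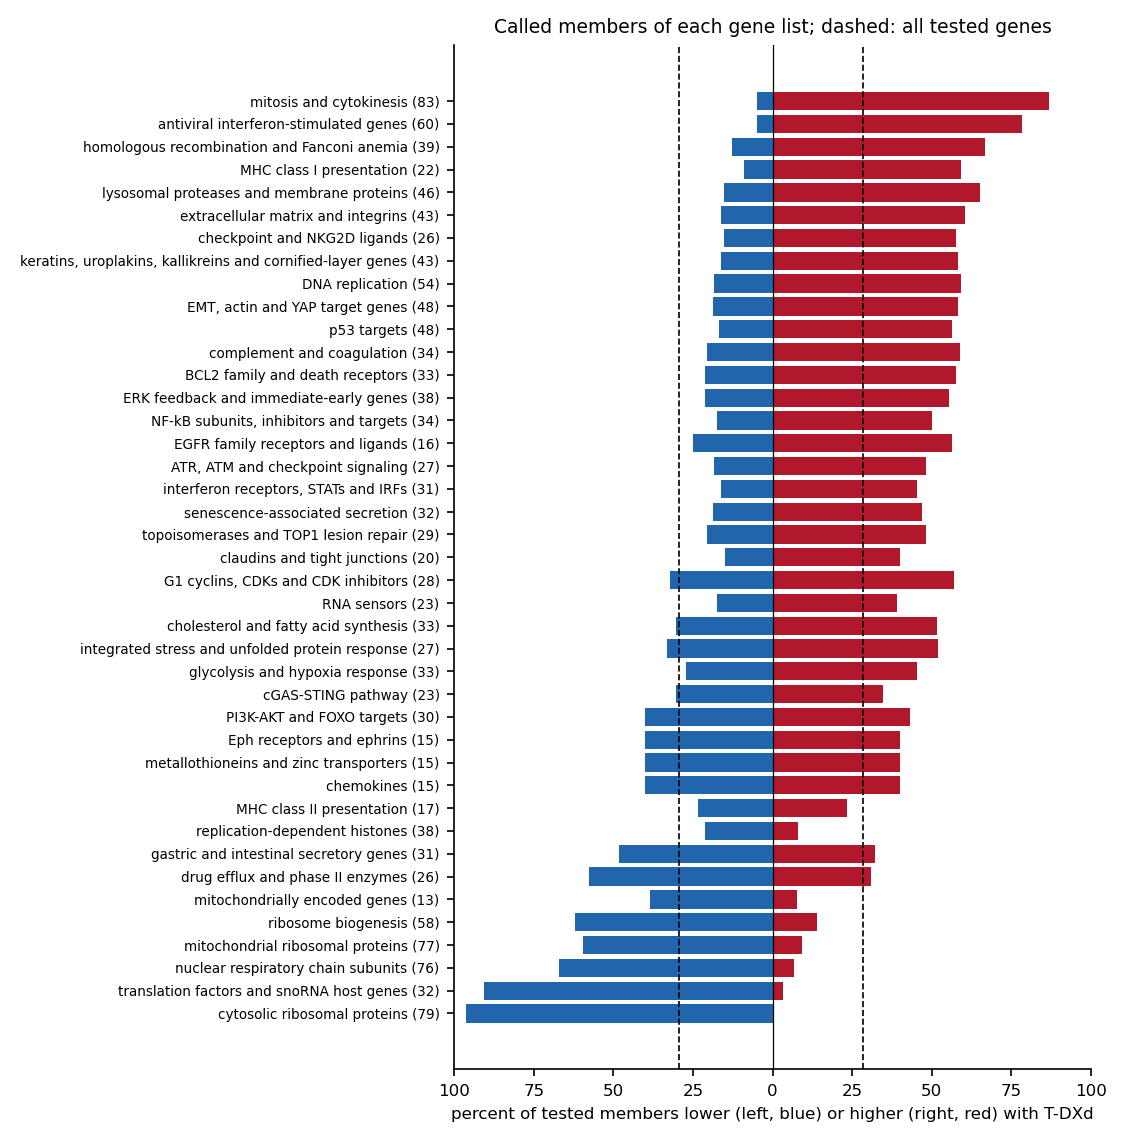
Percent of the tested members of each of 41 gene lists (tested number in brackets) that were higher (red, right) or lower (blue, left) with T-DXd than with trastuzumab; dashed lines mark all tested genes, 28.3% higher and 29.4% lower. Mitosis, with 86.7% higher, stands at one end and the cytosolic ribosomal proteins, with 96.2% lower, at the other.

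Genes of the cytosolic DNA sensing pathway were called in shares close to those of all tested genes. Of 23 members 8 (34.8%) were higher and 7 (30.4%) lower, beside 28.3% and 29.4%, with a median of -0.003 and a summed level of 1245 to 1265 CPM under trastuzumab and 1337 to 1345 CPM with T-DXd (exact permutation test, two-sided, p = 0.1). CGAS, the sensor, measured 27.1, 26.7 and 27.2 CPM under trastuzumab and 32.5, 30.3 and 29.9 CPM with T-DXd (0.19 ± 0.050), and its adaptor STING1 differed by 0.16 ± 0.040. TBK1, the kinase they activate, had -0.059 ± 0.036 and was not called, and TREX1, the nuclease that degrades cytosolic DNA, had -0.003 ± 0.18 with overlapping libraries of 2.59, 3.36 and 4.44 and 4.19, 3.47 and 2.77 CPM. IRF3 differed by 0.098 ± 0.029, a call lost without trastuzumab replicate 2 (adjusted p = 0.0649, edgeR), and IRF7, a factor that amplifies interferon, by 0.41 ± 0.046. LRRC8A, a subunit of the channel that passes cGAMP between cells, rose by 0.66 ± 0.022, while SLC19A1, an importer of cyclic dinucleotides, fell by 0.56 ± 0.058.

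Antiviral interferon-stimulated genes, one output of that pathway, were mostly higher. Of 60 tested 47 were higher and 3 lower, the median was 0.26, and the summed level was 2961 to 2999 CPM under trastuzumab and 3520 to 3590 CPM with T-DXd (exact permutation test, two-sided, p = 0.1). ISG15, the ubiquitin-like modifier, measured 31.7, 30.5 and 32.7 CPM under trastuzumab and 66.9, 65.4 and 68.6 CPM with T-DXd (1.08 ± 0.038, adjusted p = 7.41e-13, edgeR). IFIT2 went from 19.3, 18.2 and 17.8 to 34.2, 35.8 and 33.3 CPM (0.90 ± 0.056), IFIT1, which binds viral RNA ends, rose by 0.53 ± 0.063, and RSAD2, or viperin, by 1.12 ± 0.15. IFITM2, TRIM14 and HERC6 were lower, by -0.20 ± 0.051, -0.22 ± 0.028 and -0.15 ± 0.062, and the call of HERC6 was lost under 12 of the 17 alternatives.

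The promoter of ISG15 is printed with the core of the interferon-stimulated response element (ISRE), GAAANNGAA on either strand, in capitals. This core was found in 6.62% of the promoters of all tested genes and in 37 of 49 (75.5%) of the antiviral list. That list holds known interferon-stimulated genes, so its share describes the list and not the effect of T-DXd. Among genes changed by 2-fold or more, the core was in 6.21% of the higher and 8.73% of the lower.
ISG15 (chr1:1013247-1013546, plus strand): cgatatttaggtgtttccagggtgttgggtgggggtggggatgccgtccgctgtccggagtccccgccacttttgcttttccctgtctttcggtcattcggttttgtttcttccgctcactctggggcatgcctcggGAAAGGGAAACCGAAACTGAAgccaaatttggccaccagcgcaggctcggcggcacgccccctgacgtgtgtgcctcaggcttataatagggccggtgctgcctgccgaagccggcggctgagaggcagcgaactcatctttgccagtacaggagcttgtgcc
Its 3 overlapping matches began 113 bases before the annotated start.

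Of 23 RNA sensor and adaptor genes 9 (39.1%) were higher and 4 (17.4%) lower, beside 28.3% and 29.4% of all tested genes. Of 31 interferon receptor, STAT and IRF genes 14 (45.2%) were higher and 5 (16.1%) lower. OAS1, OAS3 and OASL, whose products detect double-stranded RNA or descend from such enzymes, rose by 0.68 ± 0.042, 0.61 ± 0.028 and 0.65 ± 0.045, DDX58, which encodes RIG-I, by 0.29 ± 0.091, and the adaptor MAVS by 0.24 ± 0.028. The call of DDX58 was lost without trastuzumab replicate 3 (adjusted p = 0.0583, edgeR). NLRX1, a mitochondrial member of the NLR family, fell by 0.47 ± 0.070, and TLR2, a receptor of bacterial lipoproteins named after its values were seen, fell by 1.32 ± 0.25 at low counts. IRF1 differed by 0.29 ± 0.040, JAK1 by 0.39 ± 0.024 and STAT6 by -0.43 ± 0.025. CISH, a STAT5 target that inhibits cytokine receptors, fell from 4.23, 4.23 and 4.06 to 2.14, 1.55 and 2.66 CPM (-0.98 ± 0.16).

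Class I antigen presentation genes were more often higher than lower. B2M, the shared light chain of class I, went from 1072, 1108 and 1105 to 1501, 1449 and 1501 CPM (0.44 ± 0.020) and HLA-B from 642, 632 and 647 to 962, 915 and 977 CPM (0.57 ± 0.025). Of 22 class I genes 13 were higher, and the 2 lower ones were PSMB10 (-0.30 ± 0.041), an immunoproteasome subunit, and ERAP1 (-0.46 ± 0.028), which trims peptides. Of 17 class II genes 4 were higher and 4 lower (23.5% each), close to the 28.3% and 29.4% of all tested genes. Over all settings 4 to 6 were higher and 3 to 4 lower. CD74, the invariant chain, measured 24.8, 24.5 and 24.8 CPM with vehicle, 33.2, 33.8 and 34.3 CPM under trastuzumab and 19.7, 20.2 and 21.3 CPM with T-DXd, so that trastuzumab stood above both other groups. HLA-DRA showed the same order of means and measured 8.38, 8.09 and 8.19 CPM with trastuzumab against 5.09, 4.76 and 6.63 CPM with T-DXd (-0.58 ± 0.13), whereas HLA-DMA, the peptide exchange factor, rose from 16.6, 18 and 17.1 to 24.2, 26.1 and 25 CPM (0.55 ± 0.054). HLA-DPB1, named after its values were seen, was lower at -1.33 ± 0.42 from low counts. HLA genes are near-identical to each other in places and differ from the reference by allele, so their single values are uncertain.

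Ligands of immune receptors were mostly higher. CD274, which encodes PD-L1, measured 0.822, 0.772 and 0.715 CPM under trastuzumab and 1.03, 0.833 and 1.05 CPM with T-DXd, and the difference of 0.34 ± 0.22 was not called (adjusted p = 0.208, edgeR). VSIR, or VISTA, rose from 54.9, 50.7 and 54.1 to 92, 95.2 and 97.4 CPM (0.83 ± 0.038), LGALS3, galectin-3, from 194, 201 and 198 to 329, 316 and 342 CPM (0.73 ± 0.031), and ULBP2, a ligand of the activating receptor NKG2D, from 12.9, 12.1 and 13.3 to 23.6, 26.4 and 24.7 CPM (0.96 ± 0.064). CD276 (B7-H3) and CD47, which signals against phagocytosis, rose by 0.25 ± 0.029 and 0.22 ± 0.025. NT5E, which makes adenosine, fell by 0.51 ± 0.061, and VTCN1 (B7-H4) by 0.44 ± 0.092. In all 15 of 26 were higher and 4 lower, with a median of 0.35.

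Of 15 chemokine genes 6 were higher and 6 lower (40% each), beside 28.3% and 29.4% of all tested genes. The neutrophil attractants CXCL5, CXCL3, CXCL2 and CXCL1 were all lower: CXCL5 measured 15.7, 16.4 and 16.8 CPM under trastuzumab and 5.9, 5.03 and 6.05 CPM with T-DXd (-1.53 ± 0.078), CXCL3 differed by -1.22 ± 0.090, CXCL2 by -1.03 ± 0.17 and CXCL1 by -0.69 ± 0.14. CCL5, which attracts T cells, was lower as well, at 7.82, 8.13 and 7.68 against 5.98, 7.11 and 5.1 CPM (-0.38 ± 0.11). CCL28, a mucosal chemokine, and CX3CL1, fractalkine, rose by 0.66 ± 0.086 and 0.41 ± 0.062. CXCL16, which binds CXCR6, was called higher at 0.071 ± 0.029. That call was lost without vehicle replicate 1 or 3, trastuzumab replicate 1 or 2, or T-DXd replicate 1 or 3 (adjusted p = 0.0555 to 0.201, edgeR). It was also lost with upper-quartile factors (adjusted p = 0.147, edgeR). Among 34 NF-kB genes 17 (50%) were higher and 6 (17.6%) lower. The subunit NFKB1, its inhibitor NFKBIA and the kinase IKBKB fell, by 0.51 ± 0.031, 0.31 ± 0.044 and 0.42 ± 0.036, while the target ICAM1, an adhesion molecule, rose from 25.5, 27 and 25.8 to 49.2, 49.1 and 49.5 CPM (0.92 ± 0.041).

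Fibrinolysis and complement genes held some of the largest increases outside the keratins. PLAT, tissue plasminogen activator, rose by 2.36 ± 0.14 from 1.46, 1.71 and 1.29 CPM to 6.49, 8.47 and 7.78 CPM, and PLAU, urokinase, by 1.18 ± 0.12. TIMP2, an inhibitor of metalloproteinases, went from 201, 212 and 207 to 520.4, 506 and 522 CPM (1.32 ± 0.028, adjusted p = 2.92e-15, edgeR). CD46 and CD59, which protect cells from complement, rose by 0.32 ± 0.029 and 0.56 ± 0.025. CFI, the protease that inactivates complement, fell by 0.58 ± 0.056, and C4B, which cannot be told from its near-identical copy C4A in read counts, by 0.49 ± 0.087. Of 34 members 20 were higher and 7 lower, with a median of 0.41.

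**Figure D4:**
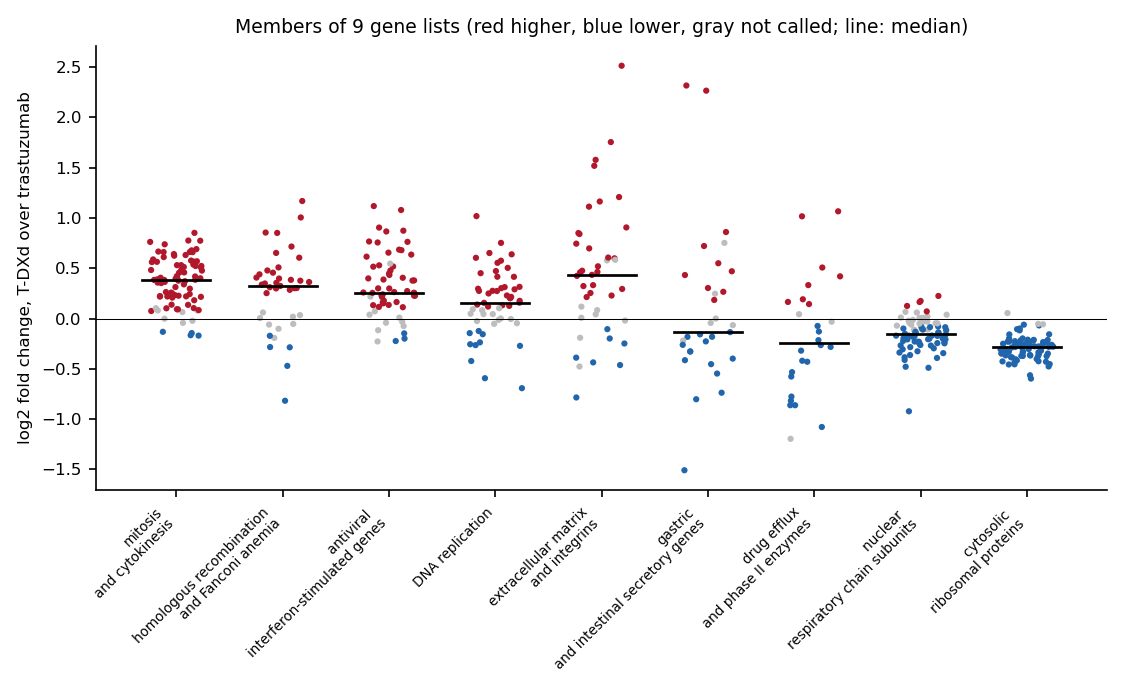
Log2 fold change of T-DXd over trastuzumab (vertical) for each tested member of 9 gene lists, red where higher, blue where lower and gray where not called, with a black line at the list's median. Mitosis has a median of 0.38 and the cytosolic ribosomal proteins one of -0.28 with little scatter, whereas replication, gastric and drug-handling genes spread to both sides of zero.

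Transcripts of the translation machinery were lower with T-DXd almost without exception. Of 79 cytosolic ribosomal protein genes 76 were lower and 0 higher at an adjusted p under 0.05 (edgeR), and the 3 not called were FAU, RPL24 and RPS20. At an unadjusted p under 0.05 the higher count was 1, FAU at 0.054, and DESeq2 also called 1 higher and 77 lower. Their median was -0.28 and their summed level was 46527 to 47369 CPM under trastuzumab and 37838 to 38783 CPM with T-DXd (exact permutation test, two-sided, p = 0.1). RPS29 fell from 139, 133 and 134 to 89.6, 89.5 and 89.7 CPM (-0.60 ± 0.022), and RPL19 from 4247, 4335 and 4331 to 3545, 3578 and 3646 CPM (-0.26 ± 0.013). EEF1A1, the elongation factor that brings tRNA to the ribosome, fell from 5992, 5979 and 5996 to 4595, 4503 and 4543 CPM (-0.40 ± 0.012). Many ribosomal protein genes have processed pseudogenes that can take some of their reads.

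Related lists leaned the same way. Among 32 translation factors and host genes of snoRNAs 29 were lower and 1 higher, with GAS5, a snoRNA host, at -0.53 ± 0.031 and EIF4B, an initiation factor, at -0.49 ± 0.024. For ribosome biogenesis, 36 of 58 were lower, including UTP20 (-0.64 ± 0.037), and 8 were higher, including DDX21 (0.18 ± 0.025), a helicase of rRNA processing. Mitochondrial ribosomal proteins were lower for 46 of 77, and nuclear-encoded respiratory chain subunits for 51 of 76. ATP5MC2, a source of the c ring of ATP synthase, measured 148, 158 and 161 CPM under trastuzumab and 78.4, 84.1 and 84 CPM with T-DXd (-0.92 ± 0.037). The 13 protein-coding genes of the mitochondrial genome summed to 80946 to 86831 CPM under trastuzumab and 79640 to 84172 CPM with T-DXd, overlapping ranges (exact permutation test, two-sided, p = 0.4).

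Metabolic genes were mixed. IDI1, an isomerase of sterol synthesis, rose from 129, 134 and 134 to 238, 232 and 229 CPM (0.81 ± 0.025), and ELOVL6, a fatty acid elongase, fell by 0.73 ± 0.053. SLC2A1, the glucose transporter GLUT1, went from 391, 391 and 401 to 658, 676 and 663 CPM (0.76 ± 0.023), EPAS1, which encodes HIF-2 alpha, rose by 0.78 ± 0.032, and LDHB, a lactate dehydrogenase subunit, fell by 0.95 ± 0.072. VEGFA, the vascular growth factor, had 0.0004 ± 0.028 and was not called. In the stress responses ATF4, the factor of the integrated stress response, fell from 364, 372 and 381 to 283, 288 and 279.6 CPM (-0.39 ± 0.027), DDIT3, or CHOP, rose by 0.55 ± 0.059 and DNAJB9, a chaperone of the endoplasmic reticulum, by 0.83 ± 0.11. For lipid synthesis 17 of 33 (51.5%) were higher and 10 (30.3%) lower, beside 28.3% and 29.4% of all tested genes. For glycolysis and hypoxia the counts were 15 (45.5%) and 9 (27.3%) of 33, and for the stress responses 14 (51.9%) and 9 (33.3%) of 27.

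Keratins, uroplakins, kallikreins and cornified-layer genes, counted together, were more often higher than lower, while gastric and intestinal genes went both ways. Besides UPK2, KRT13 and KLK5, the simple-epithelium keratins KRT7, KRT8 and KRT18 rose, KRT7 from 569, 576 and 569.9 to 962, 947 and 1013 CPM (0.77 ± 0.025), and of 43 keratin, uroplakin, kallikrein and cornified-layer genes 25 were higher and 7 lower (median 0.39). UPK1B, another uroplakin, was lower at -0.41 ± 0.14, a call lost without trastuzumab replicate 2 or T-DXd replicate 3 (adjusted p = 0.119 and 0.0729, edgeR). KRT20, a keratin of intestinal and gastric surface cells, fell by 0.59 ± 0.087. CDX2, a transcription factor that specifies intestinal epithelium, measured 66.6, 62.4 and 67.7 CPM under trastuzumab and 40.3, 38.5 and 39.2 CPM with T-DXd (-0.74 ± 0.041), and HNF4G, a nuclear receptor of the intestinal epithelium, 45.5, 47.4 and 47.6 against 27.8, 27.1 and 25.6 CPM (-0.80 ± 0.040). CDH17, an intestinal cadherin, differed by -0.45 ± 0.024 and PIGR, which carries IgA across epithelia, by -1.51 ± 0.14. MUC5AC, the mucin of gastric surface cells, rose by 2.32 ± 0.15 from low levels, 1.64, 1.5 and 1.37 CPM against 6.2, 9.25 and 6.99 CPM, and CEACAM6 from 379, 388 and 381 to 687, 695 and 702 CPM (0.86 ± 0.025). Of 31 gastric and intestinal genes 10 (32.3%) were higher and 15 (48.4%) lower, beside 28.3% and 29.4% of all tested genes.

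Adhesion and matrix genes rose widely. FN1, fibronectin (chromosome 2, 215360865 to 215436068), went from 21.9, 21.3 and 21.8 to 64.9, 65.3 and 63.5 CPM (1.58 ± 0.040, adjusted p = 1.96e-14, edgeR), and COL1A1, a chain of type I collagen, from 2.73, 2.5 and 2.48 to 7.29, 9.67 and 9.04 CPM (1.75 ± 0.12). ITGAX, an integrin subunit known from myeloid cells, rose by 2.51 ± 0.14, and ITGB1, the common beta subunit, by 0.46 ± 0.021. COL1A1 and ITGAX are also on the lists of fibroblast and leukocyte markers given above, and whether other cells contributed was not tested; COL1A2, COL3A1, PTPRC and CSF1R were not analysed here. Of 43 members 26 were higher and 7 lower (median 0.43). CDH1, E-cadherin, which is lost in epithelial-mesenchymal transition, rose from 480.0, 475 and 473 to 722, 722 and 721 CPM (0.60 ± 0.021), and among YAP targets THBS1 rose by 0.98 ± 0.046 while CCN2 fell by 0.49 ± 0.057. EFNB2, an ephrin, rose by 0.94 ± 0.035 and EPHA2, a receptor of A-type ephrins, by 0.59 ± 0.025. Of 15 Eph and ephrin genes 6 were higher and 6 lower (40% each), beside 28.3% and 29.4% of all tested genes.

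Promoter letters were counted among the genes that rose and those that fell by 2-fold or more. Of 17394 tested genes 12499 (71.9%) had a RefSeq promoter, including 306 of the higher and 275 of the lower. An AP-1 site, TGANTCA on either strand, was present in 4.98% of all these promoters, in 49 of 306 (16%) of the higher genes and in 15 of 275 (5.45%) of the lower. Above an average log2 CPM of 3 the shares were 4.31%, 11.9% of 67 genes and 11.4% of 35 genes. A TATA box, TATAAA, was found in 6.21% of all, 10.1% of the higher and 13.1% of the lower, and a CHR in 10.0%, 10.5% and 17.1%. The ISRE core was in 6.62%, 6.21% and 8.73%, and the E2F core in 1.98%, 0% and 1.09%. These counts describe letters in a window and were not tested, and a match is not a binding site. ADGRF4 is shown as a large riser with an AP-1 match, of which it holds 2, in capitals. UPK2, KRT13, TNS4 and LAT2 had no promoter sequence and were not searched.
ADGRF4 (chr6:47698330-47698629, plus strand): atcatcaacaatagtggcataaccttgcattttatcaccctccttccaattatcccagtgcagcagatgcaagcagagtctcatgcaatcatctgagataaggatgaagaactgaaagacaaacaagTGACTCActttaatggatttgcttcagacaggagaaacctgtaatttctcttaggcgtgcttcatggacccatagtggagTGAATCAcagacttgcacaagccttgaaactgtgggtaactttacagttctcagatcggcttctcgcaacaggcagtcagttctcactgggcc

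Trapped topoisomerase I is known to hinder elongation through long genes, so genes were binned by genomic span. The median log2 fold change ran from -0.15 for genes under 5 kb to 0.03 for those of 50 to 100 kb and back to -0.07 for the 921 genes over 200 kb, of which 38.2% were lower and 26.1% higher. In protein-coding genes the same bins had -0.08, 0.03 and -0.07. Long genes were found in both directions: MAML3, MOB3B and CLYBL, each over 200 kb, differed by -1.47 ± 0.093, -1.15 ± 0.090 and -1.13 ± 0.095, and PHLDB2 and NAV2, also over 200 kb, by 1.31 ± 0.048 and 1.01 ± 0.081. For a value per library, each gene's log2 CPM was taken minus its mean over the trastuzumab libraries, which puts trastuzumab near 0 by construction. On that scale the median of genes over 100 kb minus that of genes under 10 kb was 0.0859 ± 0.0307 with T-DXd and 0.000797 ± 0.0147 with trastuzumab (SD, n = 3 each). The vehicle libraries had -0.0462, -0.0288 and -0.044. An exact two-sided permutation test of T-DXd against trastuzumab gave p = 0.1, but the centering treats these groups unequally, so this p is descriptive only. From the fitted fold changes the same contrast was 0.0935 over all genes and 0.0558 over protein-coding genes. Spearman's rho across genes between span and fold change was 0.0895 for 17101 genes and 0.0342 for 13511 protein-coding genes, which are not independent replicates.

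**Figure D5:**
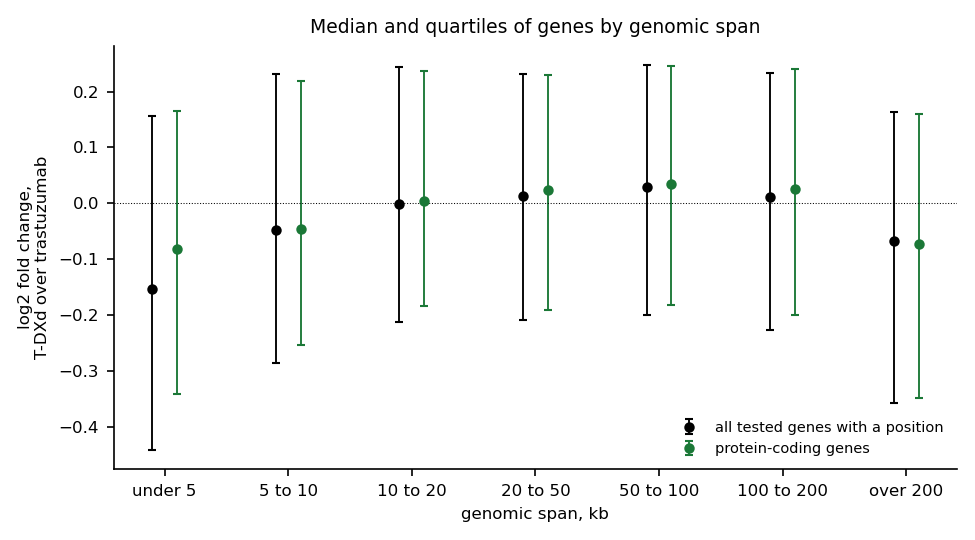
Median (dot) and quartiles (bars) of the log2 fold change of T-DXd over trastuzumab (vertical) for genes binned by genomic span in kb (horizontal), for all tested genes with a position (black) and for protein-coding genes (green). Medians lie between -0.15 and 0.03, far inside the quartiles, with the lowest values in the shortest and longest bins.

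Protein-coding genes were called more often than noncoding ones, but calls also grew with expression and the classes were not matched for level. Among protein-coding genes 33.0% were higher and 31.8% lower, whereas for long noncoding RNAs these shares were 13.5% and 22% and for pseudogenes 5.56% and 21.9%. Of 138 snoRNA genes 1 was higher and 19 lower. The libraries were prepared from mRNA, and whether these reads came from mature snoRNAs or from host transcripts was not tested. Single-exon coding genes, 315 in all, were lower in 42.2% and higher in 13.3%, against 26.7% and 41.3% of the 2023 genes with at least 20 exons, though the single-exon genes were also less abundant, with a median average log2 CPM of 2.31 against 5.46. Coding genes with a transcript GC content over 60% were higher by 2-fold or more in 4.53%, against 0.836% of those under 40%. By chromosome, the share of genes higher ran from 21.3% on chromosome 13 to 35.4% on chromosome 16, the mitochondrial genome aside.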

How the data were processed

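RNA sequencing of 9 NCI-N87 libraries was analysed. Per the labels and methods, the authors used Trimmomatic 0.38 for trimming, HISAT2 2.1.0 for alignment to the GRCh38 build and StringTie 2.1.3b for quantification; the annotation release is not given in the sources used here. The deposited raw counts per gene were used as given. The 27 other per-sample columns (normalized values) and the authors' columns of fold changes, means and p-values were not used, nor was the SNU-484 table.

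Genes passing edgeR's expression filter (minimum count 10, minimum total 15) were fitted with edgeR 4.0.16 (R 4.3.3): TMM factors, 1 term per group over 9 libraries, quasi-likelihood test of T-DXd minus trastuzumab, Benjamini-Hochberg adjustment over all 17394 genes. SEs are the absolute log2 fold change over the root of F. The fit was tested on simulated data. Depth was 47990460 to 64623697 counts per library, and the median SE was 0.0644 on the log2 scale. Gene lists were described by counts and medians without a set test. Summed CPM and the span contrast were compared with exact two-sided permutation tests.

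Named genes were the 12 that rose most and the 12 that fell most, where called, not overlapping between groups and at an average log2 CPM of 2 or more, the most changed and the most abundant members of each list, and genes the study discusses. Some of these are not reported here. Members and lists were chosen with earlier results of these data known. Positions and promoters are from RefSeq (GRCh38.p14), exon numbers and transcript GC content from GENCODE. Genes that share sequence or overlap can exchange reads. Alternatives were DESeq2 1.42.0, other scaling factors, filters, libraries and a replicate block.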

Additional observations from a re-analysis of the deposited data

How the results depend on the processing

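No called gene named above changed direction under any alternative. Of 405 named genes 369 were called, and 360 of the 405 kept direction and call throughout. At least once, 31 called genes lost the call. Over 6885 comparisons of a gene with an alternative, 130 lost the call and 23 gained one. Gains included CTSB with DESeq2, and MCM3 and SLC30A1 with upper-quartile factors. DESeq2 gave 4922 genes higher and 4787 lower, RLE factors 5056 and 4942, and upper-quartile factors 4574 and 5487. With the vehicle libraries left out, 4977 genes were higher and 4876 lower. Requiring at least 10 counts in every library, which tests fewer genes, gave 265 genes lower at 2-fold or more in place of 423. Leaving out 1 library in turn gave 4512 to 5061 genes higher, 4609 to 5066 lower, 466 to 525 higher and 415 to 459 lower at 2-fold or more. The median of genes over 100 kb minus that of genes under 10 kb was 0.0935 over all genes and 0.0807 to 0.106 without single libraries. In protein-coding genes it was 0.0558; the cause was not tested. The sign of the list median turned with the setting for the PI3K, cGAS-STING, MHC class II and zinc-handling lists, whose medians lay near 0.

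The labels do not say whether libraries with the same replicate number were paired. Deviations of trastuzumab and T-DXd libraries from their group means correlated at 0.125, 0.104 and -0.0599 for the same number. For different numbers they correlated at -0.188 to 0.124, and these few values cannot settle the question. With a replicate block 4893 genes were higher and 5073 lower, and 485 and 429 at 2-fold or more. The calls of BCL2, CHEK1, HERC6, PARP1 and TPT1 were lost with the block, at adjusted p of 0.0635, 0.0511, 0.0673, 0.0508 and 0.0579 (edgeR).

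Dose was matched by mass, at 1 time point and in 1 line, so effects of the payload on RNA and on which cells remained after 72 h cannot be told apart. CPM are relative to the total, and a change in RNA per cell was not measured. Low-count genes had few reads behind a 2-fold difference.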

Other observations

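Of 20 tight junction genes 8 were higher, 3 lower and 9 not called, beside 28.3% higher and 29.4% lower of all tested genes. The claudins CLDN3 and CLDN4, which seal epithelial junctions, were lower, CLDN4 at 297, 288 and 286 CPM under trastuzumab and 245, 238 and 258 CPM with T-DXd (-0.23 ± 0.030), whereas F11R, a junctional adhesion molecule, rose from 277, 271 and 277 to 354, 337 and 335 CPM (0.31 ± 0.027) and PARD3, a polarity protein, by 0.35 ± 0.025. Glycolytic enzymes differed among themselves: PFKP, a phosphofructokinase, rose from 144, 147 and 145 to 204, 209.6 and 213 CPM (0.52 ± 0.026) and ENO1, enolase, fell from 1652, 1642 and 1673 to 1461, 1478 and 1473 CPM (-0.17 ± 0.016). GAPDH and ACTB, often used as reference genes, had 0.015 ± 0.014 and 0.031 ± 0.020 and were not called. Without T-DXd replicate 1, ACTB was called higher at 0.0584 (adjusted p = 0.00671, edgeR).

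Among histone genes, H1-2, a linker histone of dividing cells, was lower at 8.76, 9.2 and 9.36 against 5.2, 6.27 and 6.07 CPM (-0.64 ± 0.087), and H2BC4 was higher at 4.57, 4.0 and 3.62 against 8.85, 7.63 and 7.51 CPM (0.98 ± 0.12). Histone copies share sequence, so their separate values are uncertain. GLDN, gliomedin, differed by -1.49 ± 0.12 and FDXACB1 by -1.43 ± 0.11, both among the 12 largest decreases at an average log2 CPM of 2 or more. Of 32 genes of senescence-associated secretion 15 were higher and 6 lower, and of 48 EMT, actin and YAP target genes 28 and 9, with TNS1, a tensin, at 0.95 ± 0.081.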
